A study of Homo sapiens with 6 samples.

Results

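Nascent transcription in T47D cells treated with the AKT inhibitor GDC0068 was compared with that in cells given DMSO, the solvent. GDC0068 (ipatasertib) is a small molecule that competes with ATP in the catalytic pocket of the AKT kinases. T47D is an established human breast cancer line, described in the labels as luminal, oestrogen receptor-positive and HER2-negative, and it carries an activating mutation of PIK3CA. Cells in growth factor-complete medium received DMSO, 500 nM GDC0068 or 100 nM of Degrader (INY-05-040), a compound that removes AKT protein, and were collected after 5 h. The 2 drug doses had been set to lower signalling below AKT to a similar extent. Each arm held 2 libraries from independent experiments, so the comparison rests on 4 of the 6 libraries in the study, and on 1 cell line. All 20333 gene intervals of the deposited table were members, of which 19902 had enough counts to be tested and 431 did not. Precision run-on sequencing (PRO-seq) lets engaged RNA polymerase add a biotin-labelled nucleotide, so that the reads mark polymerase that was transcribing when the cells were collected, and not the stored mRNA.

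AKT is switched on at the membrane when phosphoinositide 3-kinase (PI3K) makes its lipid product downstream of insulin, ERBB and FGF receptors. Active AKT phosphorylates the FOXO transcription factors, which keeps them out of the nucleus, and it inhibits the TSC complex, which frees mTOR complex 1 to promote the synthesis of ribosomes, nucleotides and lipids. FOXO factors are known to raise the genes of the receptors and adaptors that feed the pathway, together with genes that restrain the cell cycle and support autophagy.

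The 4 libraries held between 25371819 and 32192576 counts, and the median tested gene had between 643 and 790 counts per library. Counting error at that median was between 3.56% and 3.94%. The 2 libraries of an arm correlated at r = 0.994 on the log2 scale across genes, which are not independent replicates, and differed by more than sampling noise (chi-square per degree of freedom 5.01 for DMSO and 6.95 for GDC0068). All 12 luminal markers examined were in the table, and their summed level lay between 6020 and 6390 CPM (counts scaled to a common library total) in the 4 libraries. Of 6 basal markers only CDH3 was in the table, of 6 leukocyte markers only CD68 and CD14, and none of the 6 fibroblast or 4 endothelial markers. CD68 fell under GDC0068 (log2 change -0.30, SE 0.0536, edgeR adjusted p = 0.000228), and whether another cell type had a part in that was not tested. Levels below are CPM after TMM scaling, replicate 1 before replicate 2. Changes are log2 of GDC0068 over DMSO from edgeR's quasi-likelihood model with the replicate number as a block, and calls are genes whose p, adjusted over all 19902 genes by Benjamini and Hochberg's method, was under 0.05. Since no external standard was used here, all changes are relative to the bulk of genes, whose median change was 0.01.

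GDC0068 changed many genes by a small amount. Of the genes tested, 1766 (8.87%) were called higher and 1774 (8.91%) lower, together 3540 genes or 17.8%. The median called rise was 0.26 and the median called fall was -0.21 on the log2 scale, and 10 genes rose and 11 fell by 2-fold or more. In 1662 of the genes that rose and 1700 of those that fell, both GDC0068 libraries lay beyond both DMSO libraries; over all tested genes the 2 arms were so separated in 26.1% upward and 24.0% downward. The number of calls depended on the block: without it 712 genes (3.58%) were called, 338 higher (1.70%) and 374 lower (1.88%), all of them also called with it in the same direction. DESeq2 with the same block called 1120. Without DMSO replicate 1 the edgeR count was 1631, and without DMSO replicate 2 it was 1682. The calls of 417 genes that rose and 492 that fell held whichever of the 6 libraries was left out.

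The drug's own targets moved little. AKT1 was transcribed at 229 and 235 CPM in the DMSO libraries and 200.4 and 197 CPM in the GDC0068 libraries, and it fell (log2 change -0.23, SE 0.0347, edgeR adjusted p = 3.81e-05). Both GDC0068 libraries lay below both DMSO libraries. AKT2 stood at 96.7 and 102 CPM in the DMSO libraries and 102 and 96.8 CPM in the GDC0068 libraries, and the arms overlapped (log2 change 0.00, SE 0.0399, edgeR adjusted p = 0.988). GDC0068 acts on the kinase proteins, so these levels do not measure its effect on the target.

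Among genes of at least 10 CPM, at least 1000 bp and a proper gene name that were called with and without the block, 259 rose and 309 fell. The 12 highest and 12 lowest of them held several genes of insulin signalling, growth control and protein folding. IRS2, the insulin receptor substrate that couples insulin and IGF1 receptors to PI3K, lies at chr13:109752695-109786576 (GRCh38) and was transcribed at 11.1 and 10.9 CPM in the DMSO libraries and 21.9 and 19.1 CPM in the GDC0068 libraries (log2 change 0.89, SE 0.0948, edgeR adjusted p = 1.48e-07). This was the largest rise among the 12, and both GDC0068 values lay far above both DMSO values. KRT23, a type I keratin, stood at 32.3 and 29.6 CPM in the DMSO libraries and 55.4 and 54 CPM in the GDC0068 libraries (log2 change 0.82, SE 0.0541, edgeR adjusted p = 5.58e-11). HES1, a repressor that Notch signalling induces, lies at chr3:194136148-194138732 and rose from 142 and 138 CPM to 232 and 239 CPM (log2 change 0.75, SE 0.0405, edgeR adjusted p = 8.87e-13). In each of these genes the 2 libraries of an arm were close and the arms were far apart. CALCOCO1, an autophagy receptor, went from 22.4 and 25.2 CPM to 37.1 and 44.2 CPM (log2 change 0.77, SE 0.0626, edgeR adjusted p = 2.39e-09). The other genes of the upper group were PID1 (0.74), GPR146 (0.71), PAMR1 (0.70), ZBTB20 (0.65), NATD1 (0.65), HBP1 (0.64), SAT1 (0.64) and YPEL3 (0.62), where SAT1 is the enzyme that starts polyamine breakdown, ZBTB20 a zinc finger repressor and PAMR1 a secreted protein of unsettled role.

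At the other end, HSPA8, the constitutive HSP70 chaperone, fell from 242 and 265 CPM to 168 and 163 CPM (log2 change -0.61, SE 0.0384, edgeR adjusted p = 2.2e-11), and the 2 arms did not overlap. Its interval also holds the intervals of SNORD14D and SNORD14E on the same strand. VEGFA, the angiogenic growth factor, fell from 71.9 and 68 CPM to 49.4 and 45.4 CPM (log2 change -0.56, SE 0.0489, edgeR adjusted p = 7.97e-09). WNK2, a kinase of ion transport, fell from 25 and 22.8 CPM to 14.9 and 13 CPM (log2 change -0.78, SE 0.0866, edgeR adjusted p = 2.89e-07). The fall in WNK2 was larger than that in HSPA8 or VEGFA. CBS, which makes cystathionine from homocysteine, fell from 20.2 and 20.6 CPM to 13.6 and 13.6 CPM (log2 change -0.58, SE 0.0881, edgeR adjusted p = 2.95e-05), and MTHFD1L, a mitochondrial folate enzyme, fell from 58.3 and 57.9 CPM to 40.6 and 37.8 CPM (log2 change -0.57, SE 0.0560, edgeR adjusted p = 5.04e-08). The rest of the lower group was MIR663B (-1.24), CCDC78 (-0.64), RAB26 (-0.63), SLFNL1-AS1 (-0.61), AEN (-0.59), RET (-0.57) and SLCO4A1 (-0.57). AEN is a nuclease induced by p53, RET a receptor tyrosine kinase and SLCO4A1 an organic anion transporter. DESeq2 did not call SNORD14D. With robust estimation of the spread MIR663B was not called. With single libraries dropped, the call was lost without DMSO replicate 1 for RET (edgeR adjusted p = 0.0782).

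**Figure D1:**
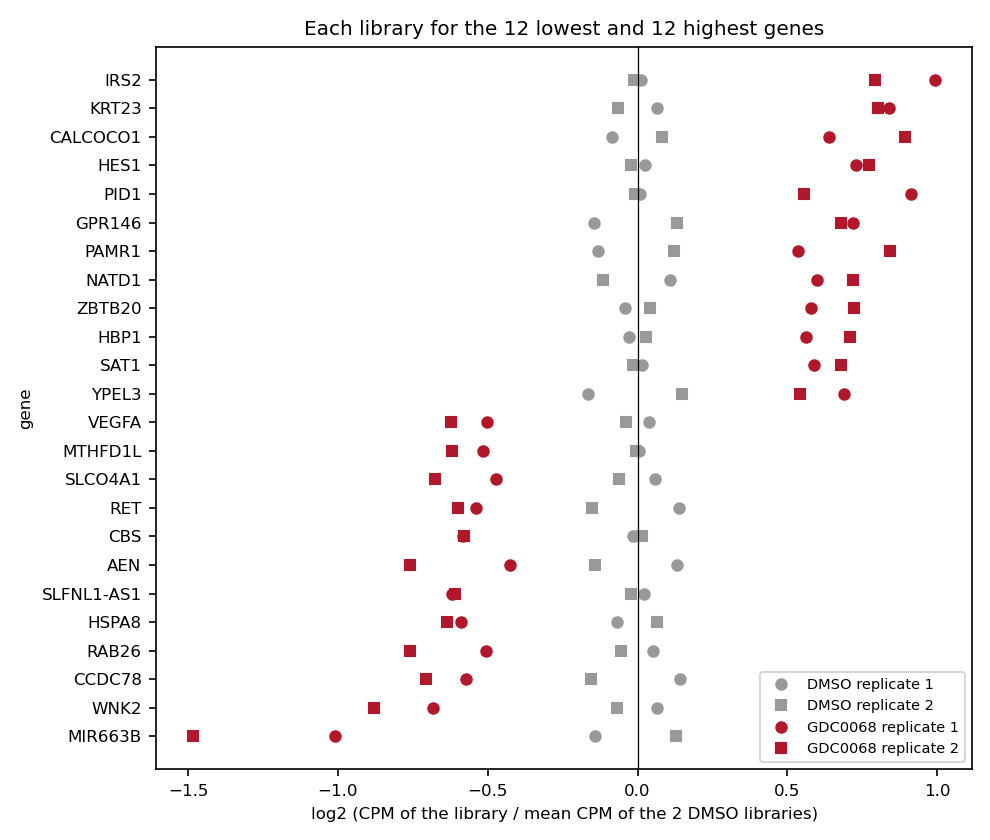
Level of each library relative to the mean of the 2 DMSO libraries, on the log2 scale (horizontal), for the 12 lowest and 12 highest genes chosen by the rule (vertical). Grey points are DMSO and red points GDC0068, with circles for replicate 1 and squares for replicate 2; in every gene shown both red points lie on the same side of both grey points, and PID1 and MIR663B have the widest gap between their red points.

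Genes that FOXO factors are known to activate rose together. Of 38 such genes listed, 34 were tested; 22 rose and 0 fell, against 8.87% and 8.91% of all genes, and the median change was 0.28. The list draws on the known response to AKT inhibition and was chosen with earlier results of these data in view, so its direction is not independent evidence. Without the block 12 rose, without DMSO replicate 1 14, and 13 held whichever library was left out. The members divide by role. Those that act back on the pathway were IRS2 (above), INSR, ERBB3, RICTOR and PIK3IP1. INSR, the insulin receptor, rose from 58.6 and 60.2 CPM to 69.5 and 75.5 CPM (log2 change 0.29, SE 0.0443, edgeR adjusted p = 3.98e-05), and ERBB3, a partner of HER2 with little kinase activity of its own, from 146 and 156 CPM to 169 and 198 CPM (log2 change 0.28, SE 0.0371, edgeR adjusted p = 4.51e-06). Both arms were separated in both genes. Restraint of the cell cycle is the known role of a second set. HBP1, a repressor of cell cycle genes, rose from 20.0 and 20.8 CPM to 30.2 and 33.4 CPM (log2 change 0.64, SE 0.0684, edgeR adjusted p = 1.76e-07). BTG1, an antiproliferative regulator of mRNA decay, rose from 107 and 112 CPM to 152 and 138 CPM (log2 change 0.40, SE 0.0408, edgeR adjusted p = 8.79e-08), and CCNG2, an inhibitory cyclin, from 28 and 39.3 CPM to 46.7 and 56.9 CPM (log2 change 0.63, SE 0.0563, edgeR adjusted p = 1.31e-08). No DMSO library reached a GDC0068 library in these 3 genes. CDKN1B, the inhibitor p27, rose by 0.23 (edgeR adjusted p = 0.0254). Further called members were the FOXO genes FOXO1 (0.21) and FOXO4 (0.59) themselves, the transcriptional regulators BCL6 (0.34) and CITED2 (0.27), the death ligand TNFSF10 (0.39), the mitochondrial kinase PINK1 (0.56), the pyruvate dehydrogenase kinase PDK4 (0.62), KLHL24 (0.61), YPEL3 (0.62) and the muscle atrophy ubiquitin ligase FBXO32 (0.28). The 12 tested members with no call included SOD2, CAT, BCL2L11, TXNIP, SESN1 and FOXO3; TXNIP stood at 40.1 and 35 CPM in the DMSO libraries and 43.9 and 39.7 CPM in the GDC0068 libraries (log2 change 0.16, SE 0.0623, edgeR adjusted p = 0.0879). Without the block ERBB3, RICTOR, CCNG2, CDKN1B, FOXO1, FOXO4, BCL6 and PDK4 were not called, and DESeq2 did not call PIK3IP1, CDKN1B and FOXO1. Dropping a single library ended calls, namely without DMSO replicate 1 for RICTOR, CDKN1B, FOXO1, FOXO4 and PDK4 (edgeR adjusted p = 0.084, 0.215, 0.163, 0.075 and 0.295), without DMSO replicate 2 for PIK3IP1, CDKN1B, FOXO1 and FOXO4 (edgeR adjusted p = 0.0834, 0.123, 0.176 and 0.189), without GDC0068 replicate 1 for CDKN1B, FOXO1, FOXO4 and PDK4 (edgeR adjusted p = 0.135, 0.0502, 0.0647 and 0.118), without GDC0068 replicate 2 for FOXO1, FOXO4 and PDK4 (edgeR adjusted p = 0.143, 0.088 and 0.0658).

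The promoters of HBP1 and BTG1 are shown because both genes rose and both hold GTAAACA, the core of the FOXO binding motif. The sequences are the 250 bases upstream of the RefSeq start (GRCh38.p14), read 5′ to 3′ in the direction of transcription, with the motif in capitals on either strand.
HBP1, chr7:107168753-107169002, plus strand: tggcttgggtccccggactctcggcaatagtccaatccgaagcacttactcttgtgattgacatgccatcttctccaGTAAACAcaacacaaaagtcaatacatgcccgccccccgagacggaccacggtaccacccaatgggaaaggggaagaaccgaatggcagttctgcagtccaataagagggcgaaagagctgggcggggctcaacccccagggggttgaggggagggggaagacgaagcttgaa
BTG1, chr12:92145847-92146096, minus strand: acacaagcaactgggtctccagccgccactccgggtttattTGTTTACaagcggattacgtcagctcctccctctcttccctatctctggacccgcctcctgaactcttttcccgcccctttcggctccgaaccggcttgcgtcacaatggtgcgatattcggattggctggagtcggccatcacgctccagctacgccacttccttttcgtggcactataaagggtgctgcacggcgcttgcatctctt
The motif was searched as GTAAACA on both strands in the 11122 tested genes whose promoter could be matched, 55.9% of those tested, and 219 of them (1.97%) held it. In the FOXO list 4 of 30 did, HBP1 and BTG1 among those called and TXNIP and BCL2L11 among those not called. Of the 219 promoters with the motif, 35 belonged to genes called higher and 14 to genes called lower. Over all tested genes 8.87% were called higher and 8.91% lower, and over coding genes 8.94% and 12.1%. The shares over the 11122 matched genes alone are not given here. A match is a string of letters and not a measured binding site.

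Among the receptors and adaptors that feed PI3K more genes were called higher than lower, and most were not called. Of 32 tested genes of insulin, ERBB and FGF signalling, 11 rose and 2 fell (median 0.08; 4 and 1 without the block, and 6 rose without DMSO replicate 2). Beside IRS2, INSR and ERBB3, the ubiquitin ligase CBLB, which limits receptor signalling, rose from 52 and 53.3 CPM to 63 and 64.8 CPM (log2 change 0.28, SE 0.0463, edgeR adjusted p = 9.53e-05). ERBB4 rose by 0.19, FGFR2 by 0.18, GRB7 by 0.27 and EGFR by 0.13. The 2 that fell were FGFR4 (-0.27) and the phosphatase gene PTPN11 (-0.20). ERBB2, IGF1R and IRS1 were among the 19 with no call. In the list of PI3K and AKT components, 4 of 32 rose and 3 fell, a share near that of all genes. PIK3CA, the catalytic subunit p110α, rose from 89.6 and 87 CPM to 110.1 and 108 CPM (log2 change 0.30, SE 0.0392, edgeR adjusted p = 3.09e-06), and its inhibitor PIK3IP1 from 8.96 and 8.75 CPM to 11.8 and 12.7 CPM (log2 change 0.46, SE 0.103, edgeR adjusted p = 0.00195). In the mTOR list 5 of 41 rose and 3 fell. With overlapping and short intervals left out 4 rose and 7 fell, and without the block 1 rose and 1 fell. DEPTOR, an inhibitory subunit of both mTOR complexes, rose from 74.2 and 69.4 CPM to 95.1 and 99.2 CPM (log2 change 0.44, SE 0.0421, edgeR adjusted p = 4.21e-08), and EIF4EBP1, the repressor of cap-dependent translation, fell from 51.9 and 52.2 CPM to 41.7 and 44.4 CPM (log2 change -0.27, SE 0.0541, edgeR adjusted p = 0.000684). TSC1 rose by 0.18 and MTOR fell (-0.15), while TSC2, RHEB and the RAG GTPases were not called. In the PI3K list the rises numbered 2 without DMSO replicate 2, and the falls numbered 1 without DMSO replicate 2 or GDC0068 replicate 2. In the mTOR list the falls numbered 5 without GDC0068 replicate 2, and the rises numbered 3 without DMSO replicate 1. Without the block ERBB3, ERBB4, FGFR2, EGFR, FGFR4, TSC1 and MTOR were not called, and DESeq2 did not call EGFR, FGFR4, PIK3IP1, TSC1 and MTOR. By limma voom EGFR was not called, and with overlapping and short intervals left out EGFR was not called, and in a fit of the 4 libraries alone EGFR was not called, and with no filter on low counts EGFR was not called. Among the genes named, calls were lost without DMSO replicate 1 for GRB7, EGFR, FGFR4 and MTOR (edgeR adjusted p = 0.0537, 0.142, 0.306 and 0.0684), without DMSO replicate 2 for FGFR2, EGFR, FGFR4 and PIK3IP1 (edgeR adjusted p = 0.0661, 0.344, 0.0628 and 0.0834), without Degrader replicate 1 for EGFR (edgeR adjusted p = 0.0597), without Degrader replicate 2 for EGFR (edgeR adjusted p = 0.0618), without GDC0068 replicate 1 for EGFR, FGFR4 and MTOR (edgeR adjusted p = 0.159, 0.175 and 0.0663), without GDC0068 replicate 2 for EGFR (edgeR adjusted p = 0.155).

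Immediate-early genes rose. These genes encode transcription factors and mRNA decay proteins that respond within minutes to growth and stress signals, and AP-1 is the dimer of FOS and JUN family members among them. Of 33 tested, 16 rose and 0 fell (median 0.19; 4 rose without the block, and 7 held whichever library was left out). FOS stood at 11.5 and 12.7 CPM in the DMSO libraries and 18.5 and 16.9 CPM in the GDC0068 libraries (log2 change 0.55, SE 0.0949, edgeR adjusted p = 0.000151). EGR1 stood at 10.6 and 14.3 CPM in the DMSO libraries and 15.5 and 15.2 CPM in the GDC0068 libraries (log2 change 0.31, SE 0.102, edgeR adjusted p = 0.0336). In both genes each GDC0068 library lay above each DMSO library, by little in EGR1, whose 2 DMSO values were far apart. ZFP36L2, which promotes decay of AU-rich mRNAs, rose from 95.4 and 95.9 CPM to 118 and 129.7 CPM (log2 change 0.37, SE 0.0382, edgeR adjusted p = 8.72e-08), and PHLDA1, an early growth factor-induced gene, from 112 and 119 CPM to 142 and 154 CPM (log2 change 0.36, SE 0.0378, edgeR adjusted p = 1.48e-07). JUND rose by 0.32 (edgeR adjusted p = 0.000309). JUN, ATF3, FOSL1, IER2 and IER3 were among the 17 not called. Without the block EGR1 and JUND were not called, and DESeq2 did not call EGR1 and JUND. With robust estimation of the spread JUND was not called. Some of these calls rested on single libraries and were lost without DMSO replicate 1 for EGR1 (edgeR adjusted p = 0.606), without GDC0068 replicate 1 for EGR1 and JUND (edgeR adjusted p = 0.45 and 0.113).

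Related signalling lists gave smaller counts. Targets of YAP and TEAD, the effectors of the Hippo pathway, rose in 8 of 28 tested genes and fell in 0, with a list median of 0.01. That one-way count did not hold in every setting. With overlapping and short intervals left out 5 rose and 3 fell, and without the block 5 rose and 0 fell. The list median took the other sign with those intervals left out and without DMSO replicate 1. AMOTL2, a feedback inhibitor of YAP, rose from 505 and 491 CPM to 613 and 626 CPM (log2 change 0.32, SE 0.0361, edgeR adjusted p = 4.64e-07). CCN1, a secreted matrix protein, rose from 70.2 and 70.6 CPM to 93 and 80.4 CPM (log2 change 0.30, SE 0.0461, edgeR adjusted p = 3.84e-05), whereas CCN2 was not called (log2 change -0.01, SE 0.185, edgeR adjusted p = 0.988). In the TGF-beta and BMP list 12 of 40 rose and 2 fell; this count was 3 without DMSO replicate 2 and 1 without the block. The 4 inhibitors of differentiation were all in the rising set, namely ID1 (0.16), ID2 (0.24), ID3 (0.24) and ID4 (0.30). The type III receptor TGFBR3 rose from 57.7 and 64.6 CPM to 68 and 84.1 CPM (log2 change 0.31, SE 0.0453, edgeR adjusted p = 1.89e-05). In the Notch list 5 of 28 rose and 2 fell. HES1 (above) and the coactivator MAML3 (0.27) rose, while the receptor NOTCH1 fell from 126 and 118 CPM to 107 and 101 CPM (log2 change -0.23, SE 0.0363, edgeR adjusted p = 5.02e-05) and its ligand JAG2 from 73.8 and 76 CPM to 59.4 and 60.8 CPM (log2 change -0.32, SE 0.0452, edgeR adjusted p = 1.23e-05). HES4 and HEY2, other targets of the pathway, were not called. The MAPK lists were near the background of 17.8%: 5 of 39 cascade kinases rose and 4 fell, and 5 of 25 feedback inhibitors rose and 1 fell. MAPK8, the JNK1 kinase, rose by 0.23 (edgeR adjusted p = 9.18e-05). The feedback genes DUSP6, SPRY2, SPRY4, ETV4 and ETV5, which follow ERK activity closely, were not called. The Wnt list had 3 higher and 3 lower of 35, and the NF-kB and interferon list 5 higher and 4 lower of 43. In the TGF-beta and BMP list the rises numbered 6 without GDC0068 replicate 2. In the MAPK kinase list the rises numbered 3 without GDC0068 replicate 2, DMSO replicate 1 or DMSO replicate 2, and the falls numbered 1 without DMSO replicate 1. In the Notch list the rises numbered 2 without DMSO replicate 1 and 3 without DMSO replicate 2. In the MAPK feedback list the rises numbered 2 without DMSO replicate 1 or DMSO replicate 2 and 3 without GDC0068 replicate 1. In the Wnt pathway list the rises numbered 1 without DMSO replicate 1 or GDC0068 replicate 1, and the falls numbered 0 without DMSO replicate 1 and 1 without GDC0068 replicate 1. In the NF-kB list the rises numbered 2 without DMSO replicate 1 and 3 without DMSO replicate 2, and the falls numbered 2 without DMSO replicate 1. Without the block ID1, ID2, ID4 and TGFBR3 were not called, and DESeq2 did not call ID1, ID2 and ID4. A call did not hold without DMSO replicate 1 for ID2 (edgeR adjusted p = 0.192), without DMSO replicate 2 for ID1, ID2 and ID4 (edgeR adjusted p = 0.265, 0.0669 and 0.512), without GDC0068 replicate 1 for ID2 and ID4 (edgeR adjusted p = 0.194 and 0.066), without GDC0068 replicate 2 for ID1 and ID4 (edgeR adjusted p = 0.101 and 0.191).

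Autophagy genes rose more often than genes at large. Of 73 tested, 20 rose and 2 fell (median 0.07). Without the block 5 rose, and without DMSO replicate 1 or 2 the counts were 10 and 9. RB1CC1 (FIP200), the scaffold of the initiating ULK complex, rose from 71.2 and 71.9 CPM to 89.5 and 96.7 CPM (log2 change 0.38, SE 0.0408, edgeR adjusted p = 1.67e-07). ATG14, a subunit of the autophagy-specific PI3K class III complex, rose from 56.2 and 56.4 CPM to 73 and 63.9 CPM (log2 change 0.28, SE 0.0492, edgeR adjusted p = 0.000207), and ULK1 by 0.17 (edgeR adjusted p = 0.00112). Among cargo receptors CALCOCO1 (above) and NBR1 rose, NBR1 from 75.7 and 73.4 CPM to 89.1 and 98 CPM (log2 change 0.33, SE 0.0431, edgeR adjusted p = 4.19e-06). Both arms were separated in each of these. The lipidated proteins that coat autophagosomes were split: MAP1LC3A (0.50) and GABARAPL1 (0.48) rose, and MAP1LC3B, GABARAP and GABARAPL2 were not called. TFEB, TFE3 and MITF, which drive lysosome genes, were not called, nor were LAMP1, LAMP2 or CTSD, and of the proton pump genes ATP6V1C1 rose (0.19) and ATP6V0D1 fell (-0.17). Without the block ULK1, MAP1LC3A, GABARAPL1, ATP6V1C1 and ATP6V0D1 were not called, and DESeq2 did not call ATP6V1C1 and ATP6V0D1. With single libraries dropped, the call was lost without DMSO replicate 1 for GABARAPL1 and ATP6V1C1 (edgeR adjusted p = 0.161 and 0.0937), without DMSO replicate 2 for MAP1LC3A, GABARAPL1 and ATP6V1C1 (edgeR adjusted p = 0.0878, 0.0528 and 0.055), without GDC0068 replicate 1 for GABARAPL1 (edgeR adjusted p = 0.106), without GDC0068 replicate 2 for ATP6V1C1 (edgeR adjusted p = 0.0515).

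**Figure D2:**
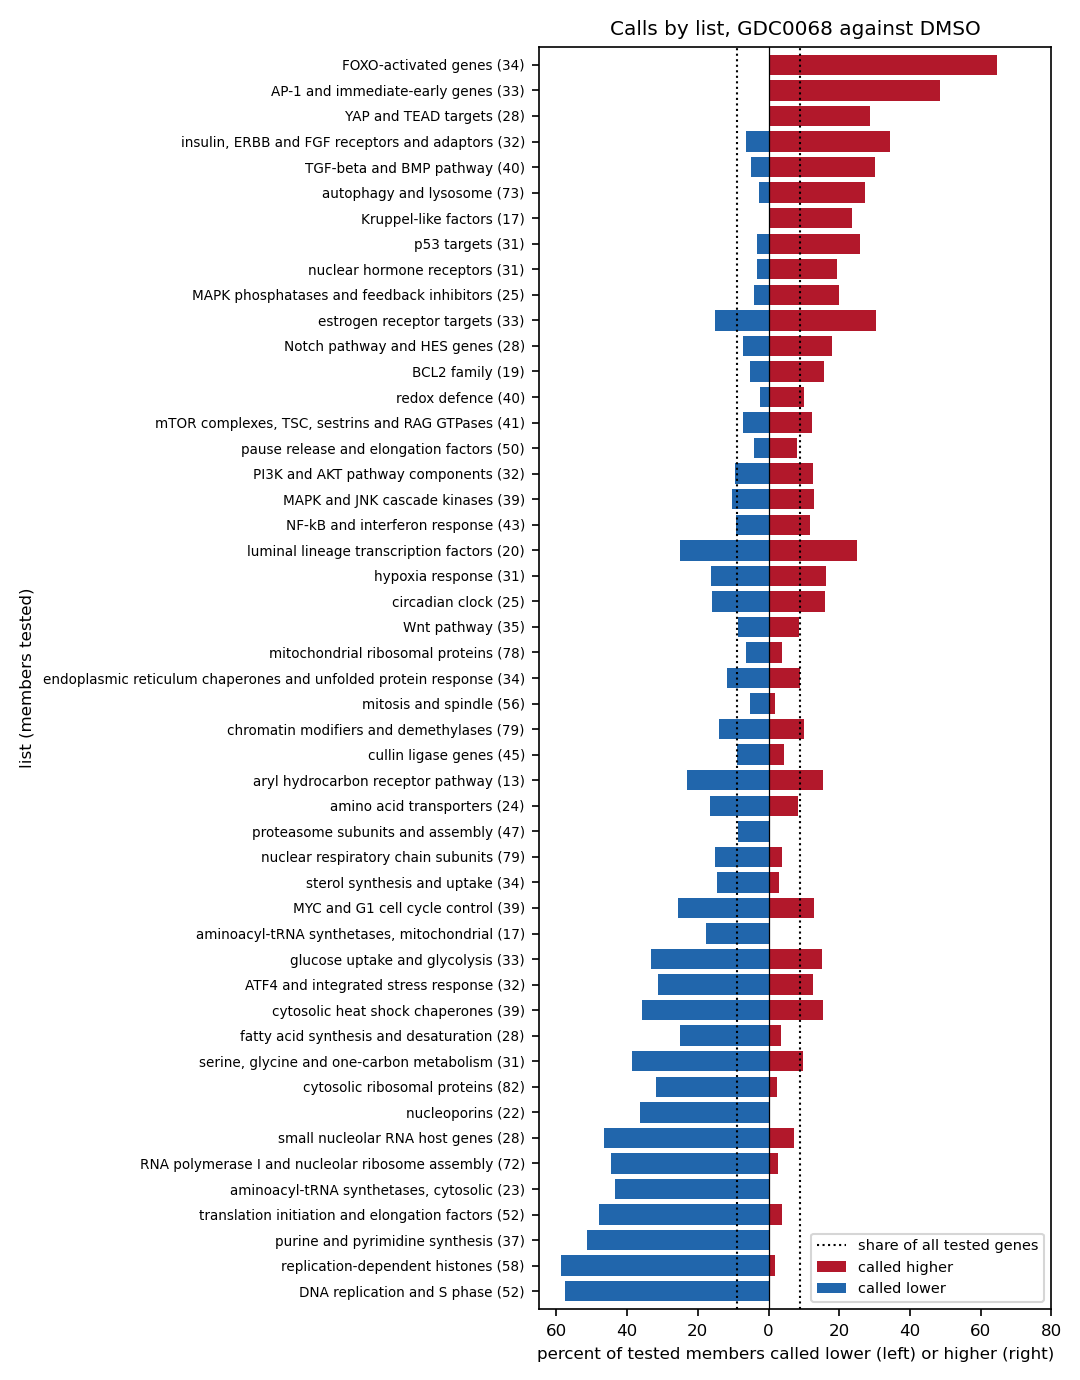
Percent of the tested members of each list that were called lower (blue, to the left) or higher (red, to the right) under GDC0068, with the number tested in brackets; dotted lines mark 8.91% lower and 8.87% higher over all genes. FOXO-activated genes stand at the top with 22 of 34 higher and none lower, and DNA replication at the bottom with 30 of 52 lower and none higher.

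DNA replication genes fell. Of 52 tested genes of origin licensing, the replication fork and S phase, 30 fell and 0 rose (median -0.17), 14 without the block, 19 without DMSO replicate 1, and 15 whichever library was left out. All 6 subunits of the MCM2-7 helicase were called. MCM5 fell from 42.8 and 39.5 CPM to 29.6 and 27.6 CPM (log2 change -0.53, SE 0.0637, edgeR adjusted p = 1.11e-06), MCM3 from 53.9 and 53.5 CPM to 40.2 and 41 CPM (log2 change -0.41, SE 0.0541, edgeR adjusted p = 4.98e-06) and MCM2 from 58.2 and 56.2 CPM to 45.7 and 43.5 CPM (log2 change -0.36, SE 0.0509, edgeR adjusted p = 1.15e-05). In all 3 both GDC0068 libraries lay below both DMSO libraries. Smaller falls were those of MCM4 (-0.19), MCM6 (-0.35) and MCM7 (-0.15). The factors that load or fire the helicase fell as well: CDT1 from 77.9 and 75.2 CPM to 59 and 58.9 CPM (log2 change -0.38, SE 0.0457, edgeR adjusted p = 1.09e-06), MCM10 from 62.8 and 67.3 CPM to 41.8 and 49.2 CPM (log2 change -0.52, SE 0.0503, edgeR adjusted p = 4.56e-08), and also CDC45 (-0.36), GINS2 (-0.44) and CDC6 (-0.18). At the fork, the clamp loader subunits RFC2, RFC3, RFC4 and RFC5 were called at -0.24, -0.26, -0.33 and -0.21, and the polymerase subunits POLE2 and POLA2 at -0.33 and -0.27. UHRF1, which guides maintenance methylation, fell from 148 and 153 CPM to 113 and 125 CPM (log2 change -0.34, SE 0.0364, edgeR adjusted p = 1.48e-07), and its partner DNMT1 fell too (-0.23). PCNA, the RPA subunits and the origin recognition subunits ORC1 to ORC6 that were tested gave no call. Fewer cells in S phase and less transcription of these genes per cell cannot be told apart in bulk samples. Without the block MCM4, MCM7, CDC6, RFC2, RFC3 and RFC5 were not called, and DESeq2 did not call MCM7, CDC6, RFC3 and RFC5. Dropping a single library ended calls, namely without DMSO replicate 1 for MCM7, CDC6, RFC2 and RFC3 (edgeR adjusted p = 0.464, 0.357, 0.129 and 0.666), without DMSO replicate 2 for MCM6 and RFC5 (edgeR adjusted p = 0.0573 and 0.0564), without GDC0068 replicate 1 for MCM7, CDC6 and RFC3 (edgeR adjusted p = 0.0831, 0.339 and 0.0997), without GDC0068 replicate 2 for MCM7 and RFC3 (edgeR adjusted p = 0.0916 and 0.122).

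Replication-dependent histones, which are transcribed mainly in S phase, also fell. Of 58 tested genes, 34 fell and 1 rose (median -0.21). This count varied with the library left out, being 13 without DMSO replicate 1 and 40 when the second DMSO library was dropped, and was 15 without the block. The linker histones H1-5 and H1-3 fell from 145 and 120.0 CPM to 92.5 and 93.3 CPM (log2 change -0.51, SE 0.0493, edgeR adjusted p = 4.21e-08) and from 116 and 98.6 CPM to 77 and 75.5 CPM (log2 change -0.49, SE 0.0436, edgeR adjusted p = 1.15e-08). H4C4 and H4C3, which encode the same histone H4 protein, fell from 62.1 and 59.8 CPM to 36.3 and 45.2 CPM (log2 change -0.58, SE 0.0618, edgeR adjusted p = 1.48e-07) and from 85.3 and 72.7 CPM to 58.3 and 57.3 CPM (log2 change -0.45, SE 0.0500, edgeR adjusted p = 2.96e-07). No GDC0068 value reached a DMSO value in these 4 genes. H2AC6, which also gives a polyadenylated mRNA, was the 1 that rose (0.17). Histone genes are near-identical copies, so their counts depend on how the authors placed reads that match several, which is not given in the sources used here. Without the block H2AC6 was not called.

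The genes that control entry into S phase were called in both directions, and few mitotic genes were called. In the MYC and G1 list 10 of 39 fell and 5 rose. The arms were separated in all 10 falls and in 3 of the 5 rises. E2F1, which activates replication genes, fell from 61.9 and 57.6 CPM to 47.4 and 46.1 CPM (log2 change -0.36, SE 0.0506, edgeR adjusted p = 1.31e-05), and the phosphatase CDC25A, which opens the G1 to S step, from 46.9 and 46.8 CPM to 36 and 34.5 CPM (log2 change -0.41, SE 0.0585, edgeR adjusted p = 1.23e-05). E2F3 (-0.43) and CCND3 (-0.27) fell as well, whereas CCND1, CCNE1, CCNE2, CDK4, CDK6 and CDKN1A were not called. Of 56 mitosis and spindle genes only 3 fell and 1 rose, below the background share, with a median of -0.02. MKI67 stood at 110.2 and 115 CPM in the DMSO libraries and 105 and 119 CPM in the GDC0068 libraries (log2 change -0.01, SE 0.0392, edgeR adjusted p = 0.896). TOP2A stood at 198 and 201 CPM in the DMSO libraries and 205 and 209.8 CPM in the GDC0068 libraries (log2 change 0.05, SE 0.0346, edgeR adjusted p = 0.31). CCNB1 stood at 77.5 and 75.3 CPM in the DMSO libraries and 73.2 and 69.5 CPM in the GDC0068 libraries (log2 change -0.10, SE 0.0425, edgeR adjusted p = 0.105). The arms overlapped in MKI67, and in TOP2A and CCNB1 they lay close together on opposite sides. In the MYC and G1 list the falls numbered 5 without DMSO replicate 1 and 6 without DMSO replicate 2, and the rises numbered 3 without DMSO replicate 1 or GDC0068 replicate 1 and 2 without DMSO replicate 2. In the mitosis list the falls numbered 1 without DMSO replicate 1 or DMSO replicate 2 and 0 without GDC0068 replicate 1. MYC was also called with the block, and neither its value nor its direction is given here. Without the block MYC and CCND3 were not called, and DESeq2 did not call MYC and CCND3. With robust estimation of the spread MYC was not called, and the list then held 4 rises and 10 falls. Among the genes named, calls were lost without DMSO replicate 1 for CCND3 (edgeR adjusted p = 0.142), without DMSO replicate 2 for MYC and CCND3 (edgeR adjusted p = 0.993 and 0.211), without GDC0068 replicate 2 for MYC and CCND3 (edgeR adjusted p = 0.464 and 0.397).

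The promoters of MCM3, UHRF1 and GINS2, which fell, hold an E2F motif, and those of H4C4 and H1-3, which fell, a TATA box near the start. They are shown as the 250 bases upstream of the RefSeq start (GRCh38.p14), 5′ to 3′ in the direction of transcription, with the E2F motif (TTTCCCGC or TTTCGCGC, either strand) or TATAAA (either strand) in capitals.
MCM3, chr6:52284743-52284992, minus strand: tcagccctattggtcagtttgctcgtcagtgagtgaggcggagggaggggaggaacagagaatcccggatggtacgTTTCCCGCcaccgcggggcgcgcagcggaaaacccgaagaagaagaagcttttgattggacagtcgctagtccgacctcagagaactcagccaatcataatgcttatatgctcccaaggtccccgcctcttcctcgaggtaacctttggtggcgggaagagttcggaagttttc
UHRF1, chr19:4909251-4909500, plus strand: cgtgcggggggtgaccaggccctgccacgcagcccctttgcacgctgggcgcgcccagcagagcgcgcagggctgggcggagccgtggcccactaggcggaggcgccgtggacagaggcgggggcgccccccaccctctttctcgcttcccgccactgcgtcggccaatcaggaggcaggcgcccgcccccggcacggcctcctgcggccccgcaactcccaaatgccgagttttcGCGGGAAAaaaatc
GINS2, chr16:85688955-85689204, minus strand: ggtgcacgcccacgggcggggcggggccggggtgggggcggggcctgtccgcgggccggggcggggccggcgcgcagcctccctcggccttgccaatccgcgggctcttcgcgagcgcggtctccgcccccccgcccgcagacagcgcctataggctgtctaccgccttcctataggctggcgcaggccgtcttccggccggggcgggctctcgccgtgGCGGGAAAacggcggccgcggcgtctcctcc
H4C4, chr6:26189113-26189362, minus strand: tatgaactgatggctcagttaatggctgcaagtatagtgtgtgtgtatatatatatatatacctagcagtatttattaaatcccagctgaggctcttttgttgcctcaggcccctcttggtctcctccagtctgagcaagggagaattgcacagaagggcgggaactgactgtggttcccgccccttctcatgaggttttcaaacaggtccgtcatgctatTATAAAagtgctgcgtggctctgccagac
H1-3, chr6:26234988-26235237, minus strand: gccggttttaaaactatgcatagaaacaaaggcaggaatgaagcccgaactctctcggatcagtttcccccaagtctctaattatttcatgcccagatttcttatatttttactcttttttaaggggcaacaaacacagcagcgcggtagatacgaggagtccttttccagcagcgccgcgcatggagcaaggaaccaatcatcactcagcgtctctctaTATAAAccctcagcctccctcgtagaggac
Of the 11122 promoters, 339 (3.05%) held an E2F motif in these 250 bases, against 11 of 46 in the replication list, 9 of which belonged to genes that fell. Of all 52 tested replication genes 30 fell. In the mitosis list 2 of 46 held the E2F motif, and neither gene was called. In the histone list 10 of 53 held it, and only 4 of these fell. Over the 339 promoters with an E2F motif 34 genes were called higher and 60 lower. TATAAA was found in 607 promoters (5.46%), against 34 of 53 in the histone list, 19 of them of genes that fell and 1 of the gene that rose. Of all 58 tested histones 34 fell, a similar share, so histones with the motif did not fall more often than the list. Over the 607 promoters 82 genes were called higher and 65 lower. For comparison with both motifs, 8.87% of all tested genes were called higher and 8.91% lower. Over coding genes the shares were 8.94% and 12.1%. The shares over the 11122 matched genes alone are not given here. Of the MCM2-7 genes, MCM3, MCM6 and MCM7 held a match and MCM2 held none; no promoter was matched for MCM4 and MCM5. For MCM7 and GINS2 the RefSeq start lies 496 and 50 bases downstream of the start in the count table. Their matches therefore lie inside the counted interval. These counts describe letters in a window and not binding.

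**Figure D3:**
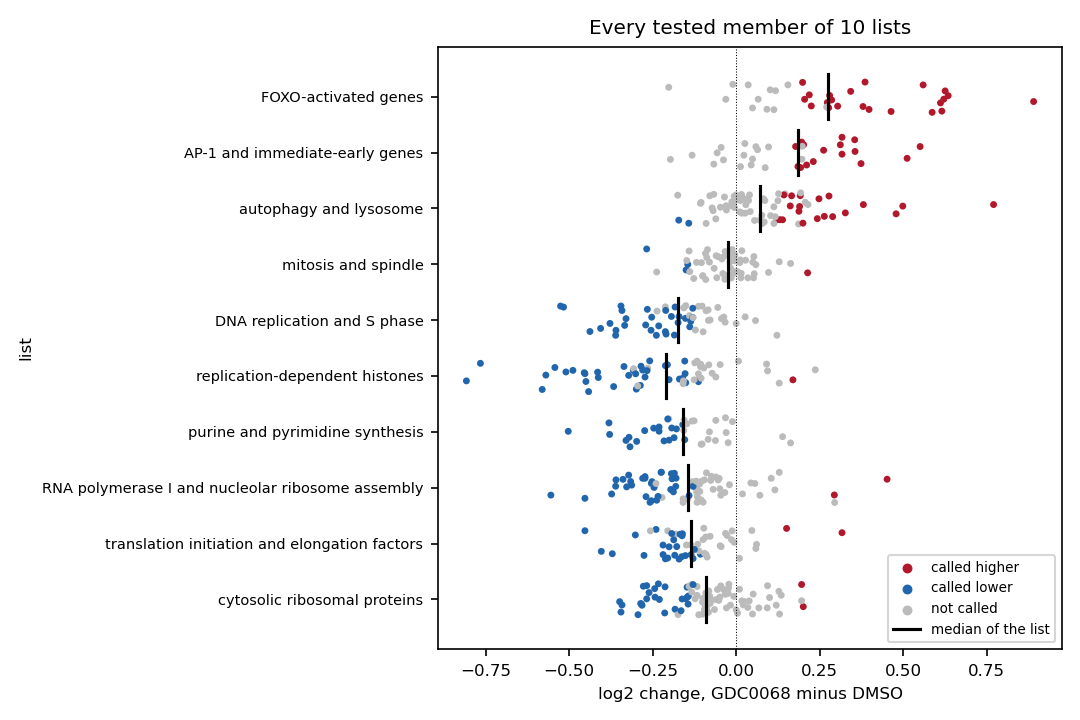
Log2 change of GDC0068 over DMSO (horizontal) for every tested member of 10 lists (vertical), 1 point per gene, coloured by its call, with a black bar at the median of the list; the vertical scatter within a list carries no meaning. The medians run from 0.28 for FOXO-activated genes to -0.21 for histones, and the mitosis points lie around -0.02 with few calls.

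Genes that build ribosomes fell, in the nucleolus and in the cytosol. RNA polymerase I and nucleolar assembly factors fell in 32 of 72 tested genes and rose in 2 (median -0.14; 13 fell without the block, 21 without DMSO replicate 2, and 18 whichever library was left out). BOP1, a large subunit assembly factor, fell from 95.4 and 84.1 CPM to 70.4 and 60.7 CPM (log2 change -0.45, SE 0.0432, edgeR adjusted p = 3.86e-08). DDX21, a nucleolar helicase, fell from 113 and 104 CPM to 90.0 and 77.7 CPM (log2 change -0.37, SE 0.0409, edgeR adjusted p = 2.32e-07). TCOF1, which supports polymerase I at ribosomal DNA, fell from 143 and 136 CPM to 112 and 109 CPM (log2 change -0.34, SE 0.0355, edgeR adjusted p = 1.22e-07). The 3 genes had non-overlapping arms. Polymerase I subunits themselves were split, POLR1A and POLR1B falling (-0.27 and -0.24) and POLR1C, POLR1D and POLR1E not called. NPM1, NCL and DKC1, abundant nucleolar proteins, also fell (-0.23, -0.19 and -0.33), while fibrillarin (FBL) was not called (log2 change -0.16, SE 0.0916, edgeR adjusted p = 0.25). The box C/D ribonucleoprotein subunits NOP56 and NOP58 were called at -0.25 and -0.22. Without the block POLR1B, NCL and DKC1 were not called, and DESeq2 did not call POLR1B. Some of these calls rested on single libraries and were lost without DMSO replicate 1 for NOP58 (edgeR adjusted p = 0.0535), without DMSO replicate 2 for POLR1B and NCL (edgeR adjusted p = 0.112 and 0.0967).

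Of 82 cytosolic ribosomal protein genes, 26 fell and 2 rose (median -0.09). That count was 12 without DMSO replicate 2 and 13 without the block. RPL3 fell from 181 and 187 CPM to 156 and 149.5 CPM (log2 change -0.27, SE 0.0356, edgeR adjusted p = 4.67e-06), RPS18 from 162 and 159 CPM to 136 and 126 CPM (log2 change -0.29, SE 0.0352, edgeR adjusted p = 9.47e-07) and RPL27 from 75.2 and 72.6 CPM to 57.7 and 58.3 CPM (log2 change -0.35, SE 0.0455, edgeR adjusted p = 3.59e-06). In each the arms were separated, yet 54 members had no call, among them RPS6, RPL11 and RPL15. The host genes of small nucleolar RNAs, whose introns release the guide RNAs of ribosomal RNA modification, fell in 13 of 28 and rose in 2, 5 without DMSO replicate 2 and 7 without GDC0068 replicate 2. SNHG3 fell from 318 and 326 CPM to 258 and 240.0 CPM (log2 change -0.37, SE 0.0378, edgeR adjusted p = 8.35e-08) and ZFAS1 from 614 and 624 CPM to 502 and 491 CPM (log2 change -0.32, SE 0.0356, edgeR adjusted p = 3.22e-07). GAS5 fell (-0.19), and SNHG1 was not called. Intervals of small nucleolar RNAs themselves fell in 24 of 167 and rose in 4; they lie inside host genes, and with overlapping and short intervals left out the count called lower was 5. In the small nucleolar RNA list the falls numbered 7 without DMSO replicate 2, and the rises numbered 2 without DMSO replicate 2, DMSO replicate 1 or GDC0068 replicate 1. Without the block GAS5 was not called. A call did not hold without DMSO replicate 2 for GAS5 (edgeR adjusted p = 0.0672), without GDC0068 replicate 2 for GAS5 (edgeR adjusted p = 0.0892).

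Translation factors and tRNA charging enzymes fell. Among 52 initiation and elongation factors 25 fell and 2 rose (median -0.14; 8 fell without the block and 15 without DMSO replicate 2). EEF1A2, an elongation factor, fell from 81.1 and 79.4 CPM to 56.9 and 60.5 CPM (log2 change -0.45, SE 0.0486, edgeR adjusted p = 1.67e-07). EEF1D and EEF1G, which reload EEF1A with GTP, fell from 189 and 183 CPM to 144 and 138 CPM (log2 change -0.40, SE 0.0355, edgeR adjusted p = 9.17e-09) and from 163 and 155 CPM to 124 and 122 CPM (log2 change -0.37, SE 0.0356, edgeR adjusted p = 3.97e-08). EEF2, which moves the ribosome along, fell (log2 change -0.28, SE 0.0351, edgeR adjusted p = 2.32e-06). PDCD4, an inhibitor of the helicase EIF4A, was 1 of the 2 that rose (0.15). The cytosolic aminoacyl-tRNA synthetases gave a count that moved little: 10 of 23 fell and none rose, 10 without the block, and between 9 and 11 with any 1 library left out. VARS1 fell from 72.9 and 64.2 CPM to 56.4 and 49.8 CPM (log2 change -0.37, SE 0.0473, edgeR adjusted p = 2.95e-06), MARS1 from 94.9 and 93.4 CPM to 71.9 and 75.5 CPM (log2 change -0.35, SE 0.0432, edgeR adjusted p = 1.39e-06) and IARS1 from 111 and 116 CPM to 89.6 and 93.1 CPM (log2 change -0.31, SE 0.0379, edgeR adjusted p = 1.39e-06). The arms were separated in all 3. The mitochondrial synthetases fell in 3 of 17 and in 0 without the block or by DESeq2. Mitochondrial ribosomal proteins fell in 5 of 78 with 3 higher, and nuclear genes of the respiratory chain in 12 of 79 with 3 higher. Calls in either direction were below the 17.8% of all tested genes among the mitochondrial ribosomal proteins. Among the respiratory chain genes they were near that share. Without the block 0 genes of either list fell. In the mitochondrial synthetase list the falls numbered 0 without DMSO replicate 1, DMSO replicate 2 or GDC0068 replicate 1. In the mitochondrial ribosome list the rises numbered 1 without DMSO replicate 1, DMSO replicate 2 or GDC0068 replicate 1 and 10 without GDC0068 replicate 2, and the falls numbered 1 without DMSO replicate 2 and 3 without GDC0068 replicate 2. In the respiratory chain list the falls numbered 5 without DMSO replicate 1 and 6 without DMSO replicate 2, and the rises numbered 1 without DMSO replicate 1 or GDC0068 replicate 1. Without the block PDCD4 was not called, and DESeq2 did not call PDCD4. With single libraries dropped, the call was lost without DMSO replicate 2 for PDCD4 (edgeR adjusted p = 0.145), without GDC0068 replicate 2 for PDCD4 (edgeR adjusted p = 0.121).

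Genes of nucleotide synthesis were called lower and none higher. Of 37 genes for purines, pyrimidines and the pentose phosphate route that feeds them, 19 fell and none rose (median -0.16; 9 without the block, 12 without DMSO replicate 1 and 12 without DMSO replicate 2). CTPS1, which makes CTP, fell from 49.8 and 48.5 CPM to 35.7 and 33.7 CPM (log2 change -0.50, SE 0.0576, edgeR adjusted p = 4.64e-07). NME1, a nucleoside diphosphate kinase, fell from 46.2 and 43.3 CPM to 35.9 and 32.9 CPM (log2 change -0.38, SE 0.0588, edgeR adjusted p = 3.79e-05), and TKT, the transketolase of the pentose phosphate route, from 105 and 102 CPM to 83.5 and 82.2 CPM (log2 change -0.32, SE 0.0418, edgeR adjusted p = 3.5e-06). All 3 had separated arms. CAD, the multifunctional enzyme that opens pyrimidine synthesis, fell (log2 change -0.25, SE 0.0439, edgeR adjusted p = 0.000213), as did RRM2, the ribonucleotide reductase subunit of S phase (-0.23). PFAS, ATIC and UMPS were not called. The one-carbon list, which supplies carbon for purines and thymidylate, had 12 lower and 3 higher of 31, 3 lower without the block and 7 without DMSO replicate 1. Beside CBS and MTHFD1L, the cytosolic folate enzyme MTHFD1 fell from 132 and 131 CPM to 98.1 and 108 CPM (log2 change -0.35, SE 0.0391, edgeR adjusted p = 3.2e-07). CTH, the enzyme after CBS in cysteine synthesis, rose by 0.40 where CBS fell. Of the other enzymes named, PHGDH was not called, MTHFD2 rose by 0.13, and PSAT1 and SHMT2 fell (-0.47 and -0.32). In the one-carbon list the rises numbered 1 without DMSO replicate 1 or GDC0068 replicate 2. Without the block RRM2, CTH, MTHFD2, PSAT1 and SHMT2 were not called, and DESeq2 did not call RRM2, MTHFD2, PSAT1 and SHMT2. Dropping a single library ended calls, namely without DMSO replicate 1 for CTH, MTHFD2 and PSAT1 (edgeR adjusted p = 0.589, 0.127 and 0.157), without DMSO replicate 2 for MTHFD2 and SHMT2 (edgeR adjusted p = 0.0993 and 0.208), without GDC0068 replicate 1 for CTH and SHMT2 (edgeR adjusted p = 0.157 and 0.0536), without GDC0068 replicate 2 for CTH and MTHFD2 (edgeR adjusted p = 0.0574 and 0.0782).

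Genes of glycolysis were called lower more often than higher, and the pyruvate dehydrogenase kinases that divert carbon from the mitochondria were split. Of 33 genes of glucose uptake and glycolysis 11 fell and 5 rose, and 7 of the falls held whichever library was left out. GPI, which isomerises glucose 6-phosphate, fell from 88.6 and 81.6 CPM to 63.3 and 57.4 CPM (log2 change -0.50, SE 0.0435, edgeR adjusted p = 9.17e-09). LDHA, which turns pyruvate into lactate, fell from 92.8 and 94.8 CPM to 66.2 and 65.9 CPM (log2 change -0.51, SE 0.0428, edgeR adjusted p = 4.67e-09), and PFKP, a phosphofructokinase, from 144 and 136 CPM to 109 and 103 CPM (log2 change -0.41, SE 0.0357, edgeR adjusted p = 9.17e-09). PKM fell from 229 and 216 CPM to 178 and 170.4 CPM (log2 change -0.35, SE 0.0343, edgeR adjusted p = 4.97e-08). Every GDC0068 value in these genes was under every DMSO value. The hexokinase HK2 (-0.49) and PGK1 (-0.35) fell too, whereas HK1, ENO1, TPI1 and the transporter SLC2A1 were not called. PDK4 and PDK2 rose (0.62 and 0.37), PDK1 fell (-0.29), and PFKFB3, which makes the activator of phosphofructokinase, rose (0.34). In the glycolysis list the falls numbered 7 without DMSO replicate 2, and the rises numbered 3 without DMSO replicate 1 or GDC0068 replicate 1. Without the block PDK4, PDK1 and PFKFB3 were not called, and DESeq2 did not call PDK1. Among the genes named, calls were lost without DMSO replicate 1 for PDK4 and PDK1 (edgeR adjusted p = 0.295 and 0.0824), without DMSO replicate 2 for PDK1 (edgeR adjusted p = 0.435), without GDC0068 replicate 1 for PDK4 and PDK1 (edgeR adjusted p = 0.118 and 0.175), without GDC0068 replicate 2 for PDK4 and PDK1 (edgeR adjusted p = 0.0658 and 0.0744).

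Hypoxia genes, many of which are glycolytic regulators or angiogenic factors, did not move one way, with 5 higher and 5 lower of 31. The collagen-modifying PLOD1 fell with VEGFA, from 65 and 66.5 CPM to 57 and 52.3 CPM (log2 change -0.27, SE 0.0506, edgeR adjusted p = 0.00043). HIF1A, VHL, NDRG1 and CA12 were not called. In the ATF4 list, the response to amino acid shortage, 10 of 32 fell and 4 rose; without the block 5 fell and 0 rose. GPT2, an alanine transaminase, fell from 49.3 and 45.9 CPM to 36.9 and 38.8 CPM (log2 change -0.33, SE 0.0588, edgeR adjusted p = 0.000218), the hormone gene ADM2 from 33.9 and 36 CPM to 25 and 25.8 CPM (log2 change -0.46, SE 0.0701, edgeR adjusted p = 3.25e-05), and the cationic amino acid transporter SLC7A1 from 74.7 and 71.1 CPM to 59.1 and 58 CPM (log2 change -0.32, SE 0.0456, edgeR adjusted p = 1.51e-05). ATF4 itself, DDIT3, TRIB3 and CHAC1 were not called. CBS and the tRNA synthetase genes CARS1, NARS1 and WARS1 stand on other lists too. The glutamine transporter SLC38A2 rose from 249 and 284 CPM to 324 and 361 CPM (log2 change 0.37, SE 0.0359, edgeR adjusted p = 5.04e-08). In the hypoxia list the rises numbered 1 without DMSO replicate 2 and 3 without GDC0068 replicate 2, and the falls numbered 3 without DMSO replicate 2 and 2 without DMSO replicate 1. In the ATF4 list the falls numbered 6 without DMSO replicate 2 and 5 without DMSO replicate 1, and the rises numbered 2 without DMSO replicate 2, DMSO replicate 1 or GDC0068 replicate 1 and 0 without GDC0068 replicate 2.

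Fatty acid synthesis fell in its main enzymes. Of 28 genes 7 fell and 1 rose. SCD, the stearoyl-CoA desaturase, fell from 96.8 and 94.5 CPM to 72.4 and 70.3 CPM (log2 change -0.42, SE 0.0421, edgeR adjusted p = 5.52e-08). ACACA, which makes malonyl-CoA, fell from 363 and 381 CPM to 275 and 303 CPM (log2 change -0.37, SE 0.0354, edgeR adjusted p = 4.21e-08), and ACLY, which provides acetyl-CoA, from 268 and 257 CPM to 218 and 217 CPM (log2 change -0.27, SE 0.0350, edgeR adjusted p = 3.05e-06). FASN, the synthase, fell from 409 and 369 CPM to 341 and 319 CPM (log2 change -0.24, SE 0.0357, edgeR adjusted p = 3.02e-05). All 4 enzymes of the route had separated arms. SREBF1, the regulator of the route, and the FADS desaturases were not called. The sterol list had 5 lower and 1 higher of 34, and 1 was lower without DMSO replicate 1. ABCA1, the cholesterol exporter, was the gene that rose, from 12.5 and 15.2 CPM to 19.6 and 20.3 CPM (log2 change 0.53, SE 0.0946, edgeR adjusted p = 0.000207). SQLE, HMGCS1 and INSIG1 were not called. Calls in either direction were 17.6% of the sterol list, near the 17.8% of all tested genes. Without the block, and also by DESeq2, 0 genes of the sterol list fell and 1 rose. In the sterol list the falls numbered 1 without DMSO replicate 2 and 2 without GDC0068 replicate 2. Without the block FASN was not called. Some of these calls rested on single libraries and were lost without DMSO replicate 1 for ABCA1 (edgeR adjusted p = 0.051).

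Chaperone genes were called in both directions. Of 39 cytosolic chaperone genes 14 fell and 6 rose; 7 fell without DMSO replicate 2 and 1 rose without GDC0068 replicate 1. HSPH1, the nucleotide exchange factor of HSPA8, fell from 22.9 and 25.7 CPM to 16.2 and 17.1 CPM (log2 change -0.55, SE 0.0859, edgeR adjusted p = 4.85e-05), and STIP1, which links HSP70 to HSP90, from 92.3 and 98.7 CPM to 70.6 and 76.2 CPM (log2 change -0.38, SE 0.0438, edgeR adjusted p = 5.65e-07). In the CCT ring that folds actin and tubulin, CCT2, CCT3, CCT4, CCT5 and CCT6A fell (-0.21, -0.21, -0.18, -0.25 and -0.24), and TCP1, CCT7 and CCT8 were not called. The stress-inducible HSPA1A moved the other way, from 40.3 and 43.3 CPM to 55.5 and 51.3 CPM (log2 change 0.35, SE 0.0557, edgeR adjusted p = 5.06e-05). HSPA1A and HSPA1B are near-identical genes, so their separate counts are uncertain. The ER chaperone list had 3 higher and 4 lower of 34; HSPA5 was not called, and ERO1B, an oxidase of the secretory pathway, rose from 34.6 and 31.8 CPM to 41.8 and 41 CPM (log2 change 0.32, SE 0.0594, edgeR adjusted p = 0.000387). In the chaperone list the rises numbered 2 without DMSO replicate 1 and 3 without DMSO replicate 2. In the ER chaperone list the rises numbered 1 without DMSO replicate 2, and the falls numbered 1 without DMSO replicate 2. Without the block CCT2 and CCT4 were not called, and DESeq2 did not call CCT2 and CCT4. A call did not hold without DMSO replicate 1 for HSPA1B (edgeR adjusted p = 0.0798), without DMSO replicate 2 for CCT2 and CCT4 (edgeR adjusted p = 0.226 and 0.405), without GDC0068 replicate 1 for HSPA1B (edgeR adjusted p = 0.0841), without GDC0068 replicate 2 for CCT4 (edgeR adjusted p = 0.058).

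Genes of the luminal state and the oestrogen response showed small changes in both directions. In the luminal transcription factor list 5 of 20 rose and 5 fell. ESR1, the oestrogen receptor, stood at 1192 and 1209 CPM in the DMSO libraries and 1014 and 1142 CPM in the GDC0068 libraries (log2 change -0.16, SE 0.0386, edgeR adjusted p = 0.0047). PGR, its target and partner, stood at 791 and 821 CPM in the DMSO libraries and 882 and 989 CPM in the GDC0068 libraries (log2 change 0.21, SE 0.0372, edgeR adjusted p = 0.000182). Both genes had separated arms, ESR1 downward and PGR upward. FOXA1 (log2 change 0.09, SE 0.0356, edgeR adjusted p = 0.0913) and GATA3 (log2 change -0.03, SE 0.0390, edgeR adjusted p = 0.605) were not called. Of 33 oestrogen receptor targets 10 rose and 5 fell; without DMSO replicate 2 the rises were 3, and without the block 1. RAB31 rose by 0.25 and the potassium channel KCNK5 fell from 86.1 and 72.2 CPM to 69.5 and 56.5 CPM (log2 change -0.33, SE 0.0468, edgeR adjusted p = 1.23e-05). TFF1, GREB1, CCND1 and CA12, widely used reporters of oestrogen action, were not called. In the luminal factor list the rises numbered 2 without DMSO replicate 2, and the falls numbered 3 without DMSO replicate 2, 1 without DMSO replicate 1 or GDC0068 replicate 1 and 8 without GDC0068 replicate 2. In the oestrogen target list the falls numbered 2 without DMSO replicate 1, and the rises numbered 5 without GDC0068 replicate 2. Without the block ESR1, PGR and KCNK5 were not called. With single libraries dropped, the call was lost without DMSO replicate 1 for ESR1 (edgeR adjusted p = 0.259).

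Among nuclear receptors 6 of 31 rose and 1, ESR1, fell. NR1D2 (REV-ERBβ), which represses clock genes, rose from 43 and 41.7 CPM to 55.1 and 48.7 CPM (log2 change 0.29, SE 0.0534, edgeR adjusted p = 0.000297). The clock output factor DBP rose from 31.3 and 28.3 CPM to 36.7 and 39.1 CPM (log2 change 0.35, SE 0.0662, edgeR adjusted p = 0.000448), and the clock list had 4 higher and 4 lower of 25, with CLOCK, ARNTL and NR1D1 not called. Of 31 p53 targets 8 rose and 1, AEN, fell. TP53INP1 rose from 42.2 and 43.1 CPM to 58.7 and 60.3 CPM (log2 change 0.48, SE 0.0492, edgeR adjusted p = 8.12e-08), while CDKN1A and MDM2 were not called. BCL2, the survival protein, rose from 43.9 and 40.7 CPM to 58.3 and 53.7 CPM (log2 change 0.40, SE 0.0519, edgeR adjusted p = 3e-06), and BCL2L1, BAX and BCL2L11 were not called. Among keratins, KRT23 (above) rose, KRT8 and KRT18 rose by 0.16 and 0.16, KRT7 fell (-0.16) and KRT19 was not called. In the circadian clock list the falls numbered 1 without DMSO replicate 1, 0 without DMSO replicate 2 and 2 without GDC0068 replicate 2. In the p53 list the rises numbered 5 without DMSO replicate 1 and 3 without DMSO replicate 2. Without the block ESR1, KRT8, KRT18 and KRT7 were not called, and DESeq2 did not call KRT18 and KRT7. Dropping a single library ended calls, namely without DMSO replicate 1 for ESR1 and KRT7 (edgeR adjusted p = 0.259 and 0.438), without DMSO replicate 2 for KRT8 and KRT18 (edgeR adjusted p = 0.34 and 0.372), without GDC0068 replicate 1 for KRT7 (edgeR adjusted p = 0.352), without GDC0068 replicate 2 for KRT8 and KRT18 (edgeR adjusted p = 0.132 and 0.537).

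The aryl hydrocarbon receptor list held a gene in which the replicate number outweighed the drug. CYP1A1, the enzyme that this receptor induces, stood at 3.24 and 23.2 CPM in the DMSO libraries and 4.88 and 31 CPM in the GDC0068 libraries. Both libraries numbered 2 were several times those numbered 1, so the arms overlapped, and the call rests on the change within each pair (log2 change 0.46, SE 0.0965, edgeR adjusted p = 0.00123). The 2 Degrader libraries had 7.45 and 54.5 CPM. Without the block CYP1A1 was not called. Among the genes named, calls were lost without DMSO replicate 2 for CYP1A1 (edgeR adjusted p = 0.0769).

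Several families, large and small, stayed below the background share of 17.8%. Of 238 zinc finger genes on chromosome 19, 8 rose and 12 fell, and of 247 on other chromosomes 20 rose and 21 fell. None of 14 tetraspanins and none of 15 homeobox cluster genes was called, which says little for families of this size. Proteasome genes fell in 4 of 47 and none rose; PSMD1, a base subunit, fell from 94.1 and 99.8 CPM to 81.7 and 84.6 CPM (log2 change -0.22, SE 0.0409, edgeR adjusted p = 0.000349). Cullin ligase genes gave 2 higher and 4 lower of 45, and factors of pause release and elongation 4 and 2 of 50; without the block 0 of either family were called in either direction. A few families departed from that pattern. Nucleoporins fell in 8 of 22 and none rose, with NUP210 falling from 347 and 339 CPM to 289.6 and 294 CPM (log2 change -0.23, SE 0.0349, edgeR adjusted p = 2.66e-05). The median level of this family was 99.4 CPM. Falls were more frequent among all genes at such levels, 13.9% between 30 and 100 CPM and 20.8% between 100 and 300 CPM. F-box genes rose in 12 of 57 and fell in 4, with FBXO25 rising from 22 and 21.2 CPM to 28.9 and 28.1 CPM (log2 change 0.40, SE 0.0760, edgeR adjusted p = 0.000476); without DMSO replicate 1 the rises numbered 6. DEAD and DEAH box helicases, many of them nucleolar, fell in 9 of 51 and rose in 1. Solute carriers fell in 30 of 208 and rose in 15, near the background; SLC30A1, a zinc exporter, rose from 31.8 and 31.8 CPM to 45.1 and 39.8 CPM (log2 change 0.42, SE 0.0629, edgeR adjusted p = 2.84e-05). In the chromosome 19 zinc finger list the rises numbered 4 without DMSO replicate 1 or DMSO replicate 2, and the falls numbered 3 without DMSO replicate 1, 2 without DMSO replicate 2 and 7 without GDC0068 replicate 1. In the other zinc finger list the rises numbered 8 without DMSO replicate 1, 9 without DMSO replicate 2 and 12 without GDC0068 replicate 1, and the falls numbered 8 without DMSO replicate 1 or DMSO replicate 2 and 12 without GDC0068 replicate 1. In the cullin ligase list the falls numbered 0 without DMSO replicate 1 or DMSO replicate 2 and 1 without GDC0068 replicate 1. In the pause release list the rises numbered 0 without DMSO replicate 1, 1 without DMSO replicate 2 and 2 without Degrader replicate 1 or Degrader replicate 2. In the nucleoporin list the falls numbered 3 without DMSO replicate 1 and 5 without DMSO replicate 2. In the F-box list the falls numbered 2 without DMSO replicate 1 or GDC0068 replicate 1, 0 without DMSO replicate 2 and 1 without GDC0068 replicate 2. In the solute carrier list the falls numbered 12 without DMSO replicate 1 and 15 without DMSO replicate 2, and the rises numbered 8 without DMSO replicate 1 or DMSO replicate 2. In the proteasome list the falls numbered 2 without DMSO replicate 2, 7 without GDC0068 replicate 1 and 8 without Degrader replicate 1 or Degrader replicate 2.

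Intervals of the long noncoding RNA classes were called higher more often than lower. Among 359 LINC intervals 46 rose and 4 fell, among 568 named antisense RNAs 86 rose and 15 fell, and among 105 divergent transcripts 12 rose and 1 fell. Clone-named intervals, mostly lncRNAs without a symbol, gave 369 higher and 126 lower of 4128. Over all tested genes 8.87% were called higher and 8.91% lower. The clone-named share of rises was near the first value, and the share of falls was below the second. Their median level was 6.52 CPM. Protein-coding genes by the RefSeq class of their name were called higher in 8.94% and lower in 12.1% of 12479. At 10 CPM or more the shares were 17.2% higher and 5.59% lower of 662 lncRNAs against 9.57% and 13.4% of 10969 coding genes. Without DMSO replicate 1 or 2 the rising antisense RNAs numbered 28 and 31, the rising LINC intervals 20 and 15, and the rising clone-named intervals 138 and 158. SLFNL1-AS1 was an exception that fell, from 106 and 103 CPM to 67.8 and 68.3 CPM (log2 change -0.61, SE 0.0426, edgeR adjusted p = 1.44e-10); it overlaps SCMH1 and SLFNL1 on the other strand. LINC02680 rose from 27.3 and 30.4 CPM to 38.5 and 46.3 CPM (log2 change 0.56, SE 0.0590, edgeR adjusted p = 1.48e-07), and SIAH2-AS1 from 125 and 108 CPM to 155 and 143 CPM (log2 change 0.35, SE 0.0363, edgeR adjusted p = 1.09e-07). Of all tested intervals 32% overlap another on either strand, and whether the authors' counting used strand is not given in the sources used here. In the LINC list the rises numbered 30 without GDC0068 replicate 1, and the falls numbered 2 without GDC0068 replicate 1, DMSO replicate 1 or DMSO replicate 2, 8 without GDC0068 replicate 2 and 7 without Degrader replicate 2. In the antisense list the rises numbered 45 without GDC0068 replicate 1, and the falls numbered 6 without DMSO replicate 1 and 9 without DMSO replicate 2. In the clone-named list the rises numbered 205 without GDC0068 replicate 1, and the falls numbered 58 without DMSO replicate 1 and 63 without DMSO replicate 2. In the divergent list the rises numbered 5 without DMSO replicate 1 and 6 without DMSO replicate 2.

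**Figure D4:**
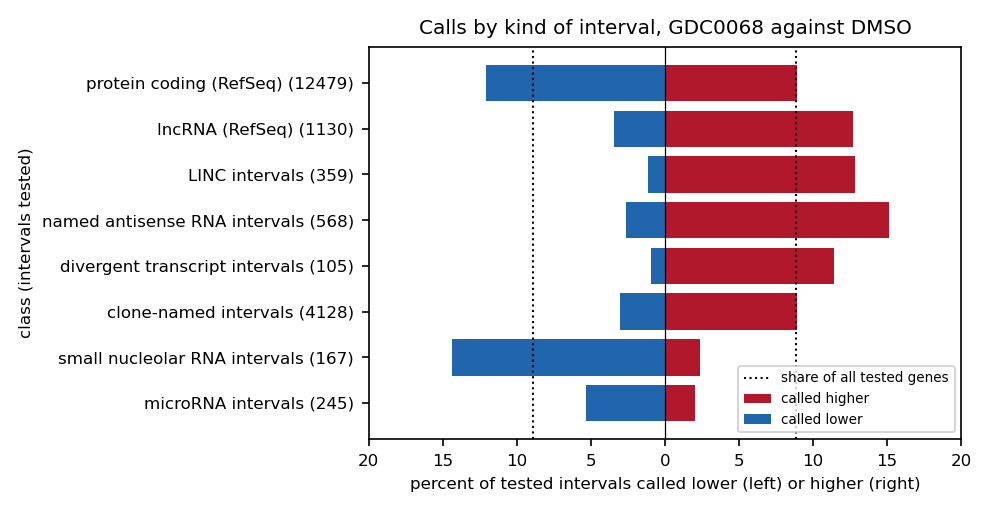
Percent of tested intervals of each kind called lower (blue, to the left) or higher (red, to the right), with the number tested in brackets; dotted lines mark 8.91% lower and 8.87% higher over all genes. Coding genes lean to the left and lncRNA, LINC, antisense and divergent intervals to the right, while small nucleolar RNA intervals lean to the left.

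MicroRNA intervals gave 5 higher and 13 lower of 245 tested, and 228 matched the RefSeq table of sequences by name. The share called was 7.35%, below the 17.8% of all tested genes, at a median level of 1.74 CPM. DESeq2 called 4 higher and 2 lower, so the lean to falls did not hold there. Counts over these intervals measure transcription through the locus and not the mature microRNA. The mature sequences of the 4 matched intervals with the smallest adjusted p are shown to place them, 5′ to 3′ with the seed (bases 2 to 8) in capitals; for MIR6827 both arms are given.
hsa-miR-663a: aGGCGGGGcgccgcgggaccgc
hsa-miR-663b: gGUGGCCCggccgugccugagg
hsa-miR-3193: uCCUGCGUaggaucugaggagu
hsa-miR-6827-5p: uGGGAGCCaugagggucugugc
hsa-miR-6827-3p: aCCGUCUCuucuguuccccag
No 2 of these share a seed. The interval of MIR663A is 51 bp long and does not hold the mature sequence; it went from 465 and 457 CPM to 140.4 and 105 CPM (log2 change -1.93, SE 0.0657, edgeR adjusted p = 1.34e-17). That of MIR663B is 1000 bp long, and MIR663B went from 51 and 61.4 CPM to 27.9 and 20.1 CPM. The names MIR663A and MIR663B mark similar copies, so how their reads divide is uncertain. MIR3193 rose from 26.6 and 24.7 CPM to 38 and 34.5 CPM (log2 change 0.50, SE 0.0671, edgeR adjusted p = 6.14e-06). MIR6827 lies inside AMOTL2 on the same strand and rose with it, from 36.8 and 34.2 CPM to 45.6 and 45.6 CPM (log2 change 0.36, SE 0.0562, edgeR adjusted p = 3.94e-05). With overlapping and short intervals left out, 2 microRNA intervals were lower and 3 higher. In the microRNA list the rises numbered 9 without GDC0068 replicate 1 and 8 without GDC0068 replicate 2, and the falls numbered 8 without DMSO replicate 1. With robust estimation of the spread MIR663B was not called.

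The share of genes called differed by level, length and chromosome. Between 10 and 30 CPM 9.33% rose and 5.01% fell, while between 100 and 300 CPM 13.0% rose and 20.8% fell. Intervals longer than 200000 bp were called higher in 15.8% and lower in 12.1% of 730, and those of 5000 to 20000 bp in 8.14% and 9.60% of 5283. Level and length went together, with median levels of 111 CPM in the longer class and 23.8 CPM in the shorter. At 10 CPM or more the longer class had 16.6% higher and 12.7% lower, and the shorter 9.06% and 11.7%. The shares of falls then lay close, and those of rises did not. Without the block 29 of the 115 long genes that rose were called, and without DMSO replicate 1 or 2 it was 61. ZBTB20, at 832130 bp among the longest genes called, rose from 42.8 and 45.4 CPM to 65.8 and 72.7 CPM (log2 change 0.65, SE 0.0471, edgeR adjusted p = 2.64e-10). Chromosomes 16, 17, 21 and 22 had the largest shares of falling genes, 12.6%, 12.3%, 14.2% and 11.9%, and chromosomes 18 and 13 the smallest, 4.17% and 5.26%. Chromosome 22 also had the smallest share of rising genes, 4.37%, and chromosome 8 the largest, 11.6%. The shares by chromosome are given for the main fit alone.

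The other AKT-directed compound, Degrader, was present in the same experiments at its own dose of 100 nM and the same time, and the direct difference between the 2 drugs was tested without use of the DMSO libraries in the contrast. GDC0068 lay above Degrader in 1064 genes and below it in 1001, 10.4% of those tested in all. This count depended on the block and on single libraries. It was 53 without the block, 428 by DESeq2, 525 without Degrader replicate 1, 1190 without Degrader replicate 2 and 1065 without GDC0068 replicate 1. The doses were chosen for similar effect and differ in amount, so the values are those of 2 treatments and not of 2 equal exposures.

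Ribosomal protein genes differed between the drugs: 56 of 82 were transcribed at a higher level under GDC0068 than under Degrader and 0 at a lower level (median difference 0.24), 9 without the block, 35 without GDC0068 replicate 1 and 38 without Degrader replicate 1. Small nucleolar RNA host genes were above in 12 of 28 and below in 0, 0 without the block, 2 above without Degrader replicate 1 and 3 without GDC0068 replicate 1. HES1 was higher with GDC0068, at 232 and 239 CPM against 141 and 159.8 CPM under Degrader (log2 difference 0.65, edgeR adjusted p = 7.62e-12). PID1, which limits insulin signalling, had 219 and 171 CPM against 99.1 and 79.5 CPM (log2 difference 1.13, edgeR adjusted p = 8.79e-15). The repressor gene DRAP1 and the polymerase II subunit gene POLR2I were also above Degrader, with edgeR differences of DRAP1 (0.66, adjusted p = 0.000316) and POLR2I (0.62, adjusted p = 0.000383). In the host gene list the genes above Degrader numbered 7 without Degrader replicate 2. Without the block DRAP1 and POLR2I were not called. Some of these calls rested on single libraries and were lost without Degrader replicate 1 for POLR2I (edgeR adjusted p = 0.0779).

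Levels under GDC0068 were below those under Degrader in 15 of 34 FOXO-activated genes and above in 1 (median difference -0.20), 2 without the block and between 12 and 15 with any 1 library left out. HBP1 had 30.2 and 33.4 CPM against 45.4 and 51.5 CPM (log2 difference -0.61, edgeR adjusted p = 3.04e-07), and IRS2 21.9 and 19.1 CPM against 27.8 and 30.3 CPM (log2 difference -0.51, edgeR adjusted p = 0.000274). The 5 lowest genes taken by the rule were these 2 and CYP1A1 (-0.76, adjusted p = 1.99e-06), INSIG1 (-0.66, adjusted p = 2.01e-06) and BMF (-0.53, adjusted p = 0.000859), where INSIG1 restrains sterol synthesis and BMF promotes cell death. Histones were below in 28 of 58 and mitosis genes in 25 of 56, with none above in either. The histone count was 5 without Degrader replicate 2 and 12 without GDC0068 replicate 1, the mitosis count was 3 without Degrader replicate 1, and both were 0 without the block. Replication genes, by contrast, were below in 5 of 52 and above in 0, and AKT1 was not called between the drugs (log2 difference 0.07, edgeR adjusted p = 0.193). In the mitosis list the genes below Degrader numbered 16 without Degrader replicate 2. In the replication list the genes below Degrader numbered 2 without Degrader replicate 2 or GDC0068 replicate 1, 9 without GDC0068 replicate 2 and 1 without Degrader replicate 1. Without the block IRS2, CYP1A1 and BMF were not called. A call did not hold without GDC0068 replicate 1 for BMF (edgeR adjusted p = 0.0506).

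**Figure D5:**
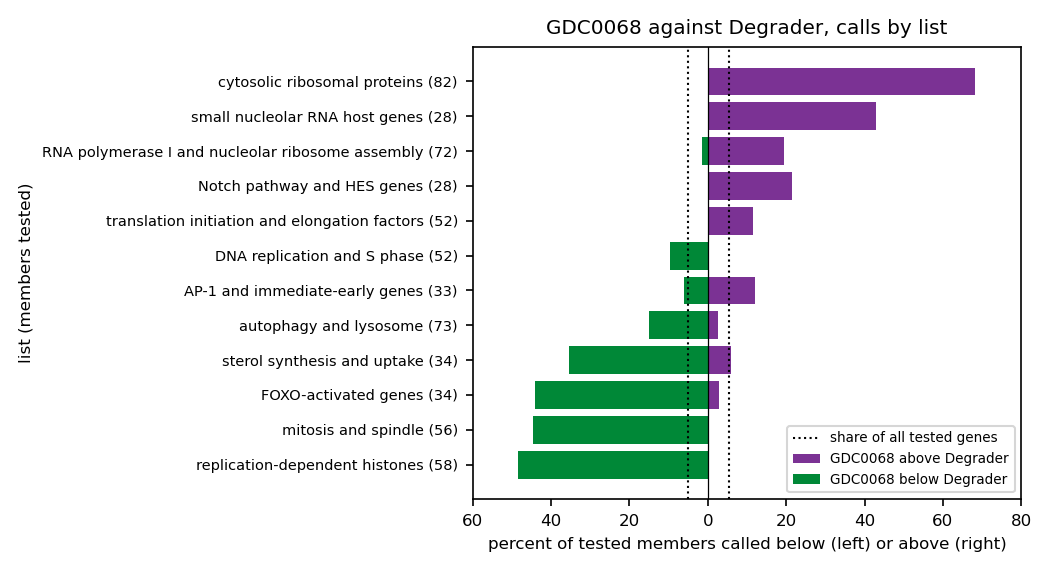
Percent of the tested members of 12 lists called below Degrader (green, to the left) or above it (purple, to the right) under GDC0068 in the direct comparison, with the number tested in brackets; dotted lines mark 5.03% below and 5.35% above over all genes. Ribosomal protein genes reach furthest to the right, with 56 of 82 above, and histones furthest to the left, with 28 of 58 below.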

How the data were processed

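Raw read counts per gene interval were deposited by the authors for 6 PRO-seq libraries. Per the submitters' processing notes, tools included cutadapt 1.14, Bowtie 1.2.2, SAMtools 1.3.1, HISAT2 2.2.1 and limma, and builds dm3, hg38 and GRCh38, with no role or order; the counting, its use of strand and any spike-in scaling are not given in the sources used here. Interval names were matched to RefSeq GRCh38.p14 in 76.6% of cases, of which 99.8% overlapped the RefSeq gene.

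Counts were analysed with edgeR 4.0.16 (R 4.3.3): filterByExpr (minimum count 10), TMM scaling (factors 0.9966 to 1.003), and a quasi-likelihood fit to all 6 libraries with arm and replicate number as terms, leaving 2 residual degrees of freedom. The code was tested on simulated data. Replicate numbers come from the library names; same-numbered DMSO and GDC0068 libraries deviated together (r = 0.154 across all genes and 0.419 across genes of at least 10 CPM), and with 2 per arm that does not settle the pairing. Alternatives included DESeq2 1.42.0 and limma 3.58.1.

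Lists, families and members were chosen with earlier results of these data known. Genes were named by rule: the 12 highest and 12 lowest called with and without the block at 10 CPM, 1000 bp and a proper name, up to 4 per list, and 5 each way against Degrader. Other genes named with values were chosen from the lists after their values were seen. A few genes that the rule or the lists hold are not reported here by name.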

Additional observations from a re-analysis of the deposited data

How the results depend on the processing

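With GDC0068 against DMSO, 3540 genes were called; without the replicate block the pairing gave 712, with the 4 compared libraries and no block 528, by DESeq2 1120, and with 1 library left out between 1631 and 3555. Against Degrader the 2065 calls became 53 without the block, 23 with 4 libraries and no block, 428 by DESeq2, and between 525 and 2192 with 1 library left out. Members of the lists and families called numbered 1613, against 383 without the block, 287 with 4 libraries and no block, 546 by DESeq2, and between 824 and 1669 with 1 library left out. Rising genes over 200000 bp numbered 115, against 29 without the block, 17 with 4 libraries and no block, 55 by DESeq2, and between 61 and 110 with 1 library left out. AKT1 fell short of the threshold with 4 libraries and no block, at -0.23 (edgeR adjusted p = 0.0524). The cause of these differences was not tested, beyond the fewer libraries or the dropped term. Of 338 called genes named by the rule, 142 were called in every alternative and 0 changed sign. Low counts limit the microRNA, small nucleolar RNA and FOS family values.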
